A study of Mus musculus with 20 samples.

Results

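The genes described here are 10 genes of the circadian clock, Per1, Per2, Per3, Cry1, Cry2, Arntl, Clock, Nr1d1, Dbp and Ciart. They were chosen by symbol, with earlier results of these data known, from the 39179 genes counted in each library. All 10 passed the filter on low counts that left 14792 genes for testing. In the mammalian clock, Arntl (also called Bmal1) and Clock encode the pair of transcription factors that bind E-boxes and activate the other members. The Per and Cry genes encode the proteins that build up and block this pair, Ciart (also called Chrono) encodes a further repressor of it, and Nr1d1 encodes the nuclear receptor REV-ERB alpha, which represses Arntl. Dbp encodes an activator of D-box genes and is widely used as a readout of clock output, since its mRNA rises and falls strongly over the day. In the striatum, where the dopamine input itself varies over the day, these genes are expressed in neurons and glia, and Per1 and Per2 are also known to respond to stimulants and to stress hormones.

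RNA was sequenced from the whole bilateral striatum of 20 young adult male mice of generation 17 of a selection experiment. High-Active mice came from a line bred for distance traveled in the home cage, and Control mice came from an unselected line, both founded from an intercross of 8 inbred strains. Each line is a single population, so that drift and selection cannot be told apart between the lines. Each line gave 5 mice to saline and 5 to amphetamine, 4 groups in all, with an injection of vehicle or of 0.25 mg/kg d-amphetamine 2 hours after lights off and tissue taken 2 hours later. All mice were therefore sampled 4 hours into the dark phase of a reversed light cycle. With this single time of day, the phase and the amplitude of the rhythm were not measured, and a difference in level cannot be told apart from a difference in timing. By the sire and dam labels there were 8 Control and 5 High-Active families.

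Each library held 32388971 to 53710713 counted reads, and the members had 410 (Ciart) to 10035 (Dbp) reads in a library. Counting error was therefore small beside the spread of the mice, except for Clock in Control saline mice, which hardly varied (SD 0.789 CPM). In CPM, the counts scaled to equal library totals, the 10 markers of striatal projection neurons summed to 4353 to 7179 CPM in every library, all of them above the filter. The markers of cortical excitatory neurons and of glia differed between groups. The cortical values are given beside the line, amphetamine and interaction results, and the glial values beside the line result only. These are bulk samples, in which fewer cells of a type and less RNA per cell cannot be told apart.

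The members lie on different chromosomes or far apart, and the positions are those of the mouse genome GRCm38. The activators are Arntl (ENSMUSG00000055116) at chr7:113207465-113314126 on the plus strand and Clock (ENSMUSG00000029238) at chr5:76209868-76304792 on the minus strand. The period genes are Per1 (ENSMUSG00000020893) at chr11:69095217-69109960 on the plus strand, Per2 (ENSMUSG00000055866) at chr1:91415982-91459324 on the minus strand and Per3 (ENSMUSG00000028957) at chr4:151003652-151044665 on the minus strand. The cryptochromes are Cry1 (ENSMUSG00000020038) at chr10:85131700-85185064 on the minus strand and Cry2 (ENSMUSG00000068742) at chr2:92403646-92434043 on the minus strand. The remaining members are Nr1d1 (ENSMUSG00000020889) at chr11:98767932-98775333 on the minus strand, Dbp (ENSMUSG00000059824) at chr7:45705088-45710203 on the plus strand and Ciart (ENSMUSG00000038550) at chr3:95878503-95882251 on the minus strand. On the opposite strand, exons of Dbp shared 539 bases (18.0% of its exon length) with Sphk2, exons of Nr1d1 shared 263 bases (8.55%) with Thra, and exons of Cry2 shared 295 bases (4.67%) with D930015M05Rik. The libraries were made with a kit that keeps the strand, but the strand setting of the counting is not given in the sources used here, so the counts of these overlaps are uncertain. Thra, at a mean of 513 CPM, differed between the lines by 0.0074 on the log2 scale (standard error 0.0398, edgeR adjusted p = 0.927). Sphk2, at 21.7 CPM, differed by 0.071 (standard error 0.0395, edgeR adjusted p = 0.268). D930015M05Rik did not pass the filter on low counts.

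The promoters of the members show which clock motifs precede the genes that are followed below. RefSeq promoters (GRCm38.p6, 250 bases before to 50 after each start) were found for 9 of the 10 members (all but Per2), and the 5 printed here are those of the genes lower in High-Active mice and of Ciart and Per3, the members with more than 1 copy of a motif. Only the 250 bases before the start are printed, 5′ to 3′ along the gene, with matches in capitals. The motifs searched on both strands were the E-box CACGTG, its variant CACGTT (read as AACGTG from the other strand), the D-box TTANGTAA, the ROR element and the cAMP response element TGACGTCA.
Cry2 promoter, chr2:92434070-92434319, minus strand: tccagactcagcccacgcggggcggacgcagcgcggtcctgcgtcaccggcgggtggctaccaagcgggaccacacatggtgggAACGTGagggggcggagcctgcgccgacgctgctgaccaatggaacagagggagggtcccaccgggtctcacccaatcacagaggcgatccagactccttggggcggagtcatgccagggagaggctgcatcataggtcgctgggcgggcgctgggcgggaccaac
Nr1d1 promoter, chr11:98775378-98775627, minus strand: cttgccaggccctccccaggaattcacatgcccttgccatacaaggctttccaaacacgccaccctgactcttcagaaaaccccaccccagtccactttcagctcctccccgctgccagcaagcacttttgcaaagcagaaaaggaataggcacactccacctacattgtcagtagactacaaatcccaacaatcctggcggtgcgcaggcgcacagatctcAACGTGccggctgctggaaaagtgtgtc
Dbp promoter, chr7:45704997-45705246, plus strand: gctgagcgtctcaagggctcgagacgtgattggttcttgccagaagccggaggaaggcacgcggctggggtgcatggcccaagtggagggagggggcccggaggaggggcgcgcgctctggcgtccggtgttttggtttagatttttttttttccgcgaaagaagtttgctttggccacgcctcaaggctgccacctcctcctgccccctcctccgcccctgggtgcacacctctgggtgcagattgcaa
Ciart promoter, chr3:95882229-95882478, minus strand: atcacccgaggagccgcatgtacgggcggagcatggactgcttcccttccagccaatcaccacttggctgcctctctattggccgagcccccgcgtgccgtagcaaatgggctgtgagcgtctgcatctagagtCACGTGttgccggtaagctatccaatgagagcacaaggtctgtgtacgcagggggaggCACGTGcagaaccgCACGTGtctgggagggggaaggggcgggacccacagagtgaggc
Per3 promoter, chr4:151044666-151044915, minus strand: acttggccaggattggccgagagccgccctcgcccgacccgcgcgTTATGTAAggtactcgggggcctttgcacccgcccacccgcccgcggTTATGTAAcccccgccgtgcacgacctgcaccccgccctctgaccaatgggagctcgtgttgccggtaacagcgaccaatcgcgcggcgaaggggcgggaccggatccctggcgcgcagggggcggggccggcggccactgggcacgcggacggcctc
Arntl ROR element, chr7:113207528-113207557, plus strand: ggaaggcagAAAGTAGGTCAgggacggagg

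The Ciart promoter held 3 E-boxes, at positions -116, -58 and -44 from the start, and Per1 and Cry1 held 1 each. Among all 27025 genes with a promoter in the table, 8.09% held an E-box. The CACGTT variant was found in Cry1, Cry2 and Nr1d1, against 5.44% of all genes. Per3 was the member with a D-box and had 2, at positions -205 and -158, where 2.72% of all genes had any. The ROR element, the binding site of the nuclear receptors ROR and REV-ERB, was present in Arntl, 27 bases after the later of its 2 RefSeq starts, and in 0.714% of all genes. No member window held a complete cAMP response element, which 2.03% of all genes did. The Dbp window held none of these motifs, which says only that these letters are not in this window.

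Compared per length of exon sequence, in RPKM (CPM divided by exon length in kilobases), Dbp was the most abundant member, with 53.7 RPKM ± 11.2 (SD, n = 20 mice). Below it came Nr1d1 with a mean of 25.6 RPKM, Cry2 with 24.2, Per1 with 21.8, Per2 with 18.9, Cry1 with 13.2, Per3 with 8.90, Ciart with 7.85, Clock with 7.28 and Arntl with 4.25. The ranges of neighbours in this order did not overlap for Dbp and Nr1d1, for Cry1 and Per3 and for Clock and Arntl. Nr1d1 exceeded Cry2 in 12 of 20 mice and Ciart exceeded Clock in 12 of 20, so the order of these neighbours is not resolved. Arntl had the lowest RPKM of the 10 genes.

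The members also differed in how much they varied between mice of the same group. The SD of log2 CPM within groups was 0.312 for Ciart, 0.261 for Dbp, 0.251 for Nr1d1, 0.238 for Per1 and 0.238 for Per2. It was 0.206 for Arntl, 0.205 for Per3, 0.145 for Cry1, 0.118 for Cry2 and 0.0947 for Clock. Among genes of a similar level (within 0.5 of the gene's mean log2 CPM), 2.99% had a larger SD than Dbp, 4.50% than Nr1d1, 4.88% than Per1 and 5.39% than Per2, but 55.8% had a larger SD than Clock. The output gene, the REV-ERB gene and the period genes were therefore among the more variable genes of their level, while Clock was not. The highest Ciart value was 2.77 times the lowest, and the highest Clock value was 1.25 times the lowest.

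**Figure D1:**
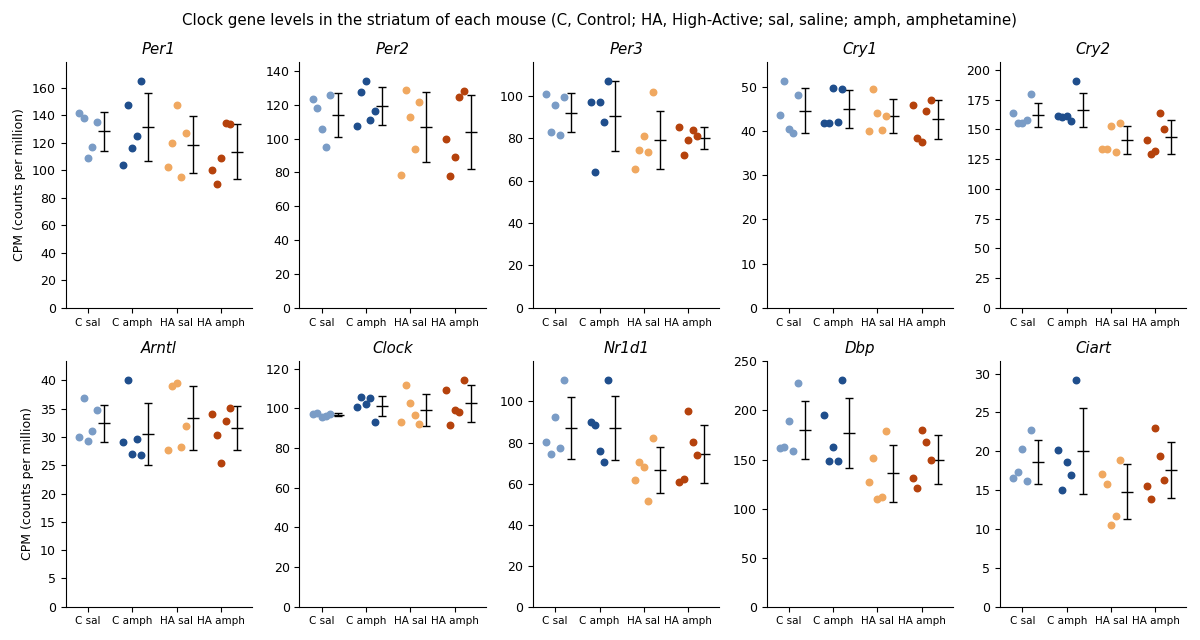
Level of each clock gene in CPM (vertical axes, from 0) in the 5 mice of each group, 1 point a mouse, with the group mean and SD in black to the right of the points. Cry2, Nr1d1 and Dbp sit lower in the High-Active groups, with overlap, and the Clock values stay between 91.6 and 114.5 CPM in all 20 mice.

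The line comparison asked which genes differ in level between the line bred for home cage activity and the unselected line, averaged over both treatments. Of the 10 clock genes, Cry2, Nr1d1 and Dbp were lower in High-Active than in Control mice at an adjusted p under 0.1 (edgeR's quasi-likelihood test, Benjamini-Hochberg adjustment over 14792 genes), and none was higher. In this comparison 14.5% of all tested genes were called and 6.9% were called lower, so 3 of 10 is a larger share than the background but rests on 3 genes. The repressor and output genes Ciart, Per1, Per2, Per3 and Cry1 had lower means in High-Active mice without passing the test, and the activators Clock and Arntl differed by 3.00% or less. In all, 8 of 10 members had a log2 fold change below 0, as did 50.3% of all tested genes, and the median was -0.18 for the members and -0.00093 for all genes. Many members were related to each other over the mice, as described below, so these signs and calls are not independent. Among the 3 called genes, Pearson's r over the mice was 0.87 for Nr1d1 and Dbp, 0.58 for Cry2 and Nr1d1 and 0.54 for Cry2 and Dbp.

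Cry2 encodes a cryptochrome that represses the CLOCK and BMAL1 pair. Its levels were 163, 155, 155, 157 and 179 CPM in Control saline mice and 161, 160.5, 161, 157 and 191 CPM in Control amphetamine mice. They were 133, 133, 153, 131 and 155 CPM in High-Active saline mice and 141, 129, 132, 164 and 150.3 CPM in High-Active amphetamine mice. In 8 of the 10 High-Active mice Cry2 was below every Control mouse, and the exceptions were 1 saline mouse and 1 amphetamine mouse. The share of all tested genes with as many was not computed. The means were 164 CPM ± 11.8 in Control and 142 CPM ± 12.4 in High-Active mice (SD, n = 10 each). It decreased by 13.4% (log2 fold change -0.21, standard error 0.0514, edgeR adjusted p = 0.0202).

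Nr1d1, the REV-ERB alpha gene, had levels of 80.4, 74.4, 92.6, 77.2 and 110.7 CPM in Control saline mice and 90.0, 88.8, 75.6, 70.5 and 110.4 CPM in Control amphetamine mice. The levels were 61.6, 70.5, 68.1, 51.5 and 82.1 CPM in High-Active saline mice and 61.0, 62.4, 95.2, 80.2 and 74.1 CPM in High-Active amphetamine mice. The groups overlapped, with 6 of 10 High-Active mice below every Control mouse. The mean fell from 87.1 CPM ± 14.3 to 70.7 CPM ± 12.7 (SD, n = 10 each), a log2 fold change of -0.30 (standard error 0.105, edgeR adjusted p = 0.0789).

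Dbp, the D-box activator, stood at 162, 163, 189, 159 and 227 CPM in Control saline mice and at 196, 148, 162, 148 and 231 CPM in Control amphetamine mice. It stood at 127, 152, 110.0, 112 and 179 CPM in High-Active saline mice and at 131, 121, 180.4, 168 and 149 CPM in High-Active amphetamine mice. Here 5 of 10 High-Active mice were below every Control mouse, and the highest Control values belonged to mouse 457 and mouse 883. The means were 179 CPM ± 30.9 and 143 CPM ± 26.5 (SD, n = 10 each), and the level decreased by 20.0% (log2 fold change -0.32, standard error 0.110, edgeR adjusted p = 0.0755). Across all tested genes, 8.43% had 5 or more High-Active mice under the lowest Control value. The share with as many as Nr1d1 was not computed.

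The other repressors differed less or varied more. Per3 ranged from 64.1 to 107 CPM in Control mice (median 96.2) and from 65.6 to 102 CPM in High-Active mice (median 80.1), with no High-Active mouse below every Control mouse but 9 of 10 below the Control median. Its log2 fold change was -0.19 (standard error 0.0844, edgeR adjusted p = 0.152). With robust dispersions in edgeR's likelihood-ratio test it was -0.25 and passed (adjusted p = 0.00808, with 15.3% of all genes called). Ciart ranged from 15.0 to 29.2 CPM in Control (median 18.0) and from 10.5 to 23.1 CPM in High-Active mice (median 16.1), a log2 fold change of -0.25 (standard error 0.132, edgeR adjusted p = 0.229). For Per1 the ranges were 104 to 165 and 90.0 to 148 CPM, with a log2 fold change of -0.16 (edgeR adjusted p = 0.315). For Per2 they were 95.1 to 134 and 78.1 to 128 CPM, with a log2 fold change of -0.14 (edgeR adjusted p = 0.374). Cry1, the paralog of Cry2, ranged from 39.7 to 51.5 CPM in Control and from 37.5 to 49.5 CPM in High-Active mice, with a log2 fold change of -0.058 (edgeR adjusted p = 0.589). The 95% interval for Cry1 (1.96 standard errors on each side) was -0.18 to 0.064, and that for Cry2 was -0.31 to -0.11, but the difference between the paralogs was not tested.

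The activators had similar levels in the lines. Clock ranged from 92.9 to 106 CPM in Control and from 91.6 to 114.5 CPM in High-Active mice, a log2 fold change of 0.027 with a 95% interval of -0.055 to 0.11 (edgeR adjusted p = 0.723). Arntl ranged from 26.9 to 40.2 CPM and from 25.4 to 39.6 CPM, a log2 fold change of 0.043 with an interval of -0.13 to 0.21 (edgeR adjusted p = 0.795). The Arntl interval includes the value of Cry1 and does not include that of any other repressor or of Dbp. Those values have errors of their own, and the difference between activators and repressors was not tested.

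**Figure D2:**
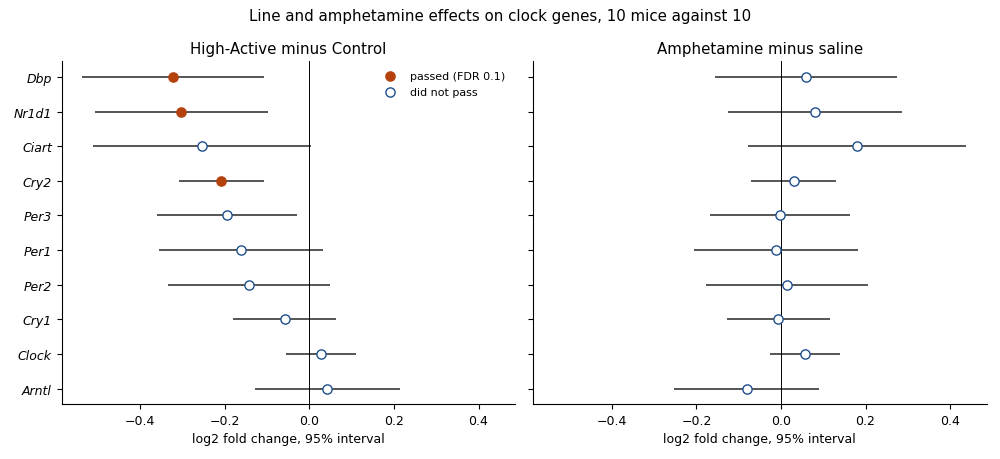
Log2 fold change of each clock gene (horizontal axes) for High-Active minus Control and for amphetamine minus saline, with the 95% interval as a line, filled where the adjusted p was under 0.1. Dbp, Nr1d1 and Cry2 were called for the line (-0.32, -0.30 and -0.21), and the amphetamine values lie between -0.082 for Arntl and 0.18 for Ciart with no call.

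The line difference was also read within each treatment, with 5 mice against 5. In saline mice the log2 fold change was -0.40 for Dbp (edgeR adjusted p = 0.185), -0.38 for Nr1d1 (adjusted p = 0.188) and -0.20 for Cry2 (adjusted p = 0.161), with 0 of 10 members called against 3.74% of all genes and 3 members at an unadjusted p under 0.05, as had 17.4% of all genes. DESeq2 called 1 member here and 7.51% of all genes. In amphetamine mice it was -0.24 for Dbp (adjusted p = 0.525), -0.22 for Nr1d1 (adjusted p = 0.538) and -0.21 for Cry2 (adjusted p = 0.219), with 0 of 10 called against 1.3% and 1 member at an unadjusted p under 0.05, as had 12.6% of all genes. In saline and in amphetamine mice alike, 8 of 10 members had a negative log2 fold change, all but Clock and Arntl, and these signs are again not independent.

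Other features of the mice moved with the line. The markers of cortical excitatory neurons summed to 410 to 1002 CPM in Control mice (median 788) and to 236 to 1107 CPM in High-Active mice (median 410), with all 10 markers detected and 5 of 10 called lower. Within saline mice the sums were 410 to 957 CPM in Control and 236 to 431 CPM in High-Active mice. The 8 oligodendrocyte markers had a median sum of 5299 CPM in Control mice (3925 to 6614) and 5952 CPM in High-Active mice (5440 to 7242), with 2 called higher. The 6 astrocyte markers had a median sum of 1523 CPM in Control mice (1459 to 1609) and 1643 CPM in High-Active mice (1493 to 1916). Of these, 3 were called higher, Aldh1l1 (log2 fold change 0.32, edgeR adjusted p = 0.0120), Gja1 (0.19, adjusted p = 0.0352) and Aldoc (0.19, adjusted p = 0.0653), and the part of astrocytes in the line difference was not tested. Of the 8 choroid plexus and the 5 endothelial markers 0 were called. The 10 markers of striatal projection neurons had median sums of 6297 and 5232 CPM, with 0 called. With scores of the cortical and oligodendrocyte markers as covariates, the log2 fold change was -0.14 for Cry2 (edgeR adjusted p = 0.351), -0.27 for Nr1d1 (adjusted p = 0.419) and -0.29 for Dbp (adjusted p = 0.339), so no clock gene was called. In that fit 265 of 14792 genes were called (1.79%).

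The High-Active mice also tended to be born later, on a median of day 43.5 (8 to 84), counted from the earliest birth as day 1, against day 22 for Control mice (1 to 66). Age at tissue collection is not among the labels used, so a difference in age between the lines was not tested. With birth date as a covariate, the decreases were larger, at -0.27 for Cry2 (edgeR adjusted p = 0.00824), -0.41 for Nr1d1 (adjusted p = 0.0363) and -0.48 for Dbp (adjusted p = 0.0147), and Per3 also passed at -0.29 (adjusted p = 0.0620). With family as a random block in limma-voom, the same 3 genes passed, with adjusted p values of 0.0221 for Cry2, 0.0868 for Nr1d1 and 0.0779 for Dbp. Cry2 passed in each of the 20 fits that left out a single mouse, Dbp in 12 and Nr1d1 in 10. Without mouse 192, 197, 369, 415, 457, 499, 871 or 883, the member called was Cry2 alone.

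**Figure D3:**
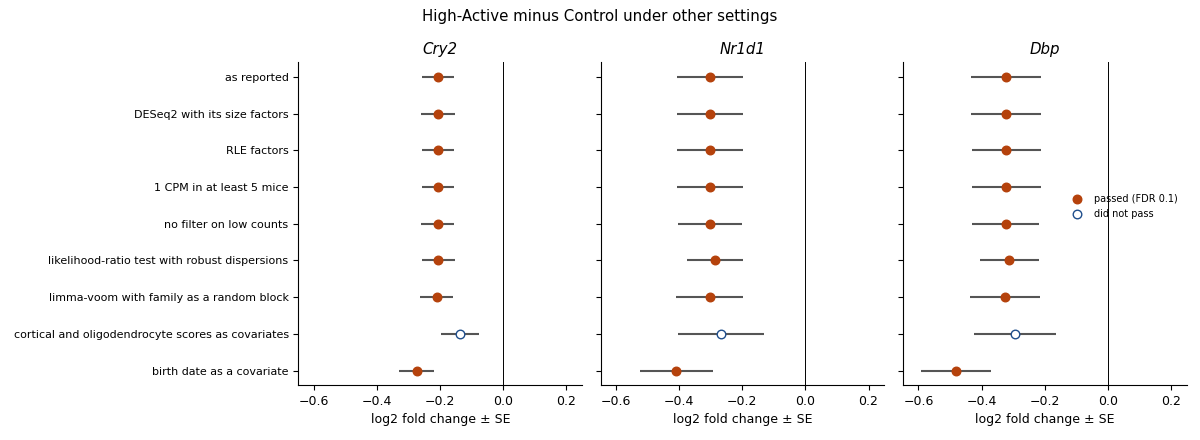
Log2 fold change of Cry2, Nr1d1 and Dbp between High-Active and Control mice (horizontal axes, bars are standard errors) as reported and under 8 other settings (rows), filled where the adjusted p was under 0.1. The points stay below 0 in every row, and with the marker scores as covariates they are unfilled, at -0.14, -0.27 and -0.29.

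The amphetamine comparison asked which genes differ 2 hours after the injection, averaged over both lines. No clock gene was called (edgeR's quasi-likelihood test, 0 of 10), and neither was any of the 14792 genes, a background of 0%. At an unadjusted p under 0.05 there were 0 members and 1844 genes, and DESeq2 called 391 genes of which 0 were members. Ciart had the largest log2 fold change, 0.18 with a 95% interval of -0.078 to 0.44 (edgeR adjusted p = 0.621). Its levels were 16.1 to 22.8 CPM in Control saline, 15.0 to 29.2 CPM in Control amphetamine, 10.5 to 18.9 CPM in High-Active saline and 13.9 to 23.1 CPM in High-Active amphetamine mice, with overlap throughout.

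The markers of cortical excitatory neurons moved with treatment as well. Their sums had a median of 545 CPM in Control saline (410 to 957), 819 CPM in Control amphetamine (724 to 1002), 264 CPM in High-Active saline (236 to 431) and 645 CPM in High-Active amphetamine mice (303 to 1107). For amphetamine 9 of the 10 markers had a log2 fold change above 0 (median 0.95), with 0 called and 8 at an unadjusted p under 0.05, where 12.5% of all genes had one. With the cortical and oligodendrocyte scores as covariates the amphetamine values of 6 members turned sign, among them Ciart at -0.028 and Dbp at -0.12, and again 0 members were called.

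The period genes are the members best known for acute induction by stimulants. Per1 averaged 128 CPM ± 14.2 after saline and 132 CPM ± 24.7 after amphetamine in Control mice, and 118 CPM ± 20.7 and 114 CPM ± 20.0 in High-Active mice (SD, n = 5 each). Its amphetamine log2 fold change was -0.011, with an interval of -0.20 to 0.18. Per2 averaged 114 CPM ± 13.0 and 119 CPM ± 11.2 in Control mice and 107 CPM ± 20.6 and 104 CPM ± 21.8 in High-Active mice, a log2 fold change of 0.015 with an interval of -0.18 to 0.21. An average change of Per1 or Per2 over both lines beyond about that size was thus outside the interval, while smaller changes were not resolved. Within a line the intervals were wider. For Per1 they were -0.24 to 0.31 in Control and -0.33 to 0.22 in High-Active mice. For Per2 they were -0.20 to 0.34 and -0.31 to 0.23. Clock had the narrowest interval, -0.025 to 0.14 around 0.057. The immediate early genes, 12 genes such as Fos and Egr1 that mark recent neuronal activation, had 0 of 12 called for amphetamine, where no gene at all was called, and 0 of 12 for line. Ier2 was the one at an unadjusted p under 0.05 for amphetamine (log2 fold change 0.56, unadjusted p = 0.00304, edgeR adjusted p = 0.206).

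The interaction asked whether the response to amphetamine differed between the lines. No member was called (0 of 10, background 0%), no member had an unadjusted p under 0.05 and 440 of all genes did, and DESeq2 called 0 genes. The log2 values of the difference between the responses ran from -0.11 for Per2 to 0.16 for Dbp and Nr1d1. Standard errors ran from 0.0839 to 0.263, so a difference of this size could not be resolved. All 10 cortical markers had an interaction value above 0 (median 0.90), with 0 called and 1 at an unadjusted p under 0.05, and with the marker scores as covariates the values of 4 members turned sign. Dbp averaged 180.0 CPM ± 29.2 after saline and 177 CPM ± 36.0 after amphetamine in Control mice, and 136 CPM ± 29.1 and 150.0 CPM ± 24.6 in High-Active mice (SD, n = 5 each).

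Relations between activators and repressors were read over the mice rather than over time. Each value was the deviation of log2 CPM from the mean of the mouse's group, so that line and treatment differences do not enter, and all 45 pairs were tested by 100000 permutations of the mice within groups. Of these, 14 pairs had an adjusted p under 0.1 for Pearson's r, and all 14 were positive. For 5 of the 14, under 5% of all tested genes had a larger absolute r with either gene of the pair, and for the other 9 the larger of the 2 shares was 6.58% to 17.2%, so these do not stand apart from many other genes. With Spearman's rho 8 pairs passed, each of them also among the 14. No negative relation passed. The adjusted p values are Benjamini-Hochberg values over the 45 pairs, and mice of the same parents are not fully independent.

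Dbp, Ciart and Nr1d1 formed the tightest group. Dbp and Ciart had r = 0.93 and rho = 0.95 (permutation p = 1e-05 for each, the smallest that the permutations can give, adjusted p = 0.000225 and 0.00045). With mice 457 and 886 left out, which lay farthest from the Dbp median, r was 0.90. Nr1d1 and Dbp had r = 0.87 (permutation p = 1e-05, the smallest possible) and rho = 0.81, with r = 0.86 without mice 487 and 871. Nr1d1 and Ciart had r = 0.75 (permutation p = 0.0007, adjusted p = 0.0103) and rho = 0.73, with r = 0.68 without mice 487 and 871. These relations were present within each line, at 0.95 in Control and 0.91 in High-Active mice for Dbp and Ciart, 0.89 and 0.86 for Nr1d1 and Dbp, and 0.78 and 0.73 for Nr1d1 and Ciart (n = 10 each). They were also the 3 pairs that passed when mice of the same parents were averaged. Of all 14792 tested genes, Ciart had the highest r with Dbp, and 0.0811% of genes had a larger absolute r with Dbp than Nr1d1 had.

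Some but not all pairs of period and cryptochrome genes were related. Per1 and Per3 (r = 0.21), Per2 and Per3 (0.36), Per3 and Cry1 (0.34) and Cry1 and Cry2 (0.48) did not pass. Per1 and Cry2 had r = 0.75 (permutation p = 0.0011, adjusted p = 0.0103), rho = 0.66 and r = 0.65 without mice 457 and 499. Per2 and Cry1 had r = 0.73 (permutation p = 0.00115, adjusted p = 0.0103), rho = 0.78 and r = 0.70 without mice 197 and 415. Per1 and Per2 had r = 0.68 (permutation p = 0.00388, adjusted p = 0.0291), rho = 0.66 and r = 0.79 without mice 457 and 499, and 7.31% of all genes had a larger absolute r with Per2. All 21 pairs among the repressors Per1, Per2, Per3, Cry1, Cry2, Nr1d1 and Ciart had r above 0, with a median of 0.48, and 8 of them passed. All 7 pairs of Dbp with a repressor were positive as well, and 4 passed. Of all tested genes, 11.7% (for Ciart) to 23.1% (for Per2) had an absolute r above 0.5 with a repressor, and 15.4% with Dbp. The share of positive or passing pairs among other genes was not computed.

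Arntl and Clock, whose proteins act as a pair, had r = 0.62 (permutation p = 0.012, adjusted p = 0.0677), rho = 0.67 and r = 0.63 without mice 407 and 499. Of all genes, 7.27% had a larger absolute r with Arntl and 9.13% with Clock. Their relations with the repressors had no common sign. Of the 14 pairs of an activator with a repressor, 7 were positive and 7 negative, and Per2 and Arntl was the pair that passed (r = 0.56, permutation p = 0.0212, adjusted p = 0.0849, rho = 0.55, r = 0.53 without mice 197 and 415). A larger absolute r was found for 17.2% of all genes with Per2 and for 12.0% with Arntl. The strongest negative values were -0.43 for Arntl and Ciart (permutation p = 0.104, adjusted p = 0.199) and -0.36 for Clock and Ciart (permutation p = 0.185, adjusted p = 0.308). Leaving out the 2 mice most distant in the activator (407 and 499, and 483 and 905) gave -0.16 and -0.54. Arntl and Nr1d1, the activator gene and the repressor known to act on its promoter, had r = -0.0061 (permutation p = 0.981).

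**Figure D4:**
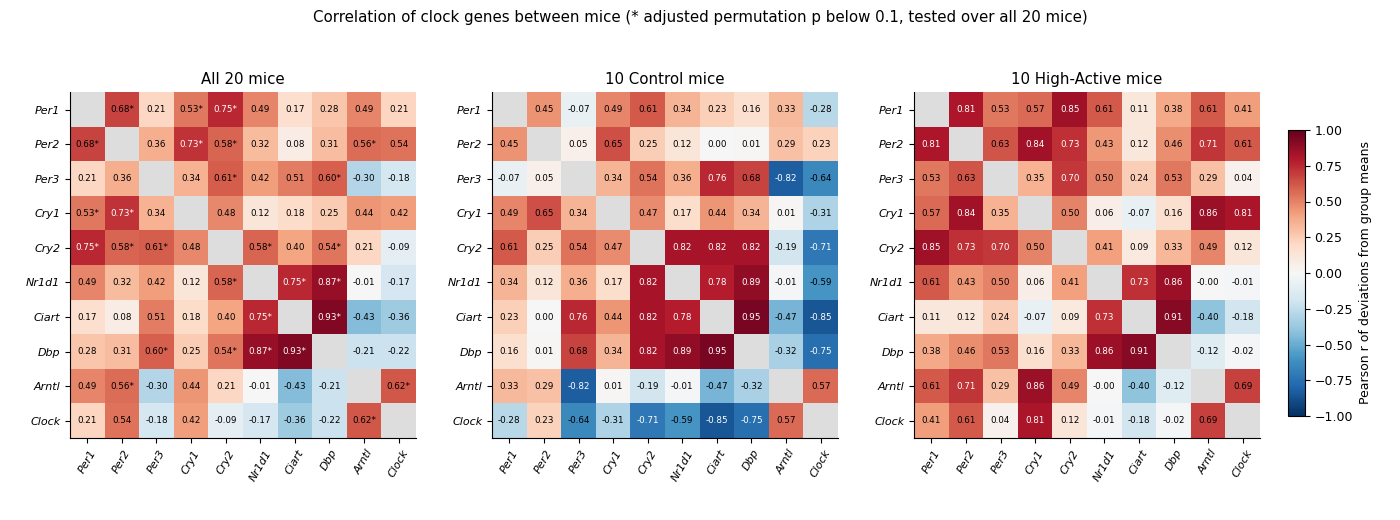
Pearson's r between clock genes (both axes) over all 20 mice, over the 10 Control mice and over the 10 High-Active mice, from -1 in blue to 1 in red, with stars on the 14 pairs that passed over all mice. The block of Nr1d1, Ciart and Dbp is red in every panel, and the Clock row is mostly blue in Control mice (-0.85 with Ciart) and pale or red in High-Active mice (-0.18 with Ciart).

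By line, the activators gave different pictures that did not pass a test. In Control mice 10 of the 14 pairs of an activator with a repressor had r below 0, and in High-Active mice 4 did. Clock and Ciart had r = -0.85 in Control and -0.18 in High-Active mice, Per3 and Arntl had -0.82 and 0.29, and Cry1 and Clock had -0.31 and 0.81 (n = 10 each). Clock hardly varied in Control saline mice (96.8 CPM ± 0.789, SD, n = 5), so its Control values rest mostly on the Control amphetamine mice. Among these, mouse 457 lay farthest from the group mean in Clock (-0.12 on the log2 scale) and in Ciart (0.59). The difference between the lines was tested for each pair by permuting the line labels of the mice, a test added after these values were seen. The smallest p was 0.00385 for Cry1 and Clock (permutation test, adjusted p = 0.173 over 45 pairs), followed by 0.0122 for Per3 and Arntl (adjusted p = 0.274), and 0.113 for Clock and Ciart (adjusted p = 0.543). Over all 20 mice, the r of Per3 and Arntl was -0.30, and it was 0.20 without mice 407 and 886, the farthest from the Per3 median.

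**Figure D5:**
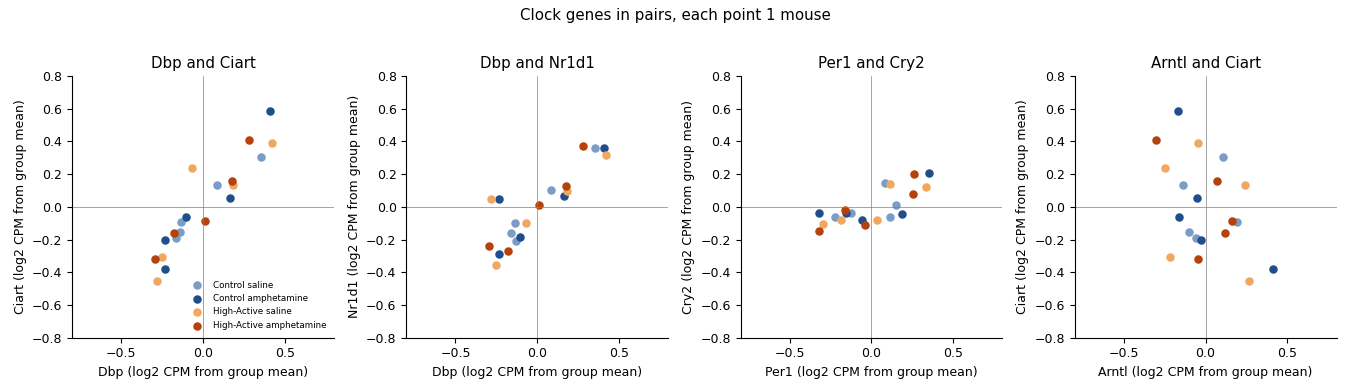
Deviation of log2 CPM from the group mean for 4 pairs of clock genes (both axes), each point 1 mouse in the color of its group. Ciart and Nr1d1 rise with Dbp (r = 0.93 and 0.87), Cry2 rises with Per1 over a narrower range (r = 0.75), and Ciart against Arntl is scattered (r = -0.43).

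A first principal component of the 10 genes held 43.3% of their variance between mice, and the second held 30.1%. The loadings on the first were 0.29 to 0.41 for the repressors and Dbp, 0.080 for Arntl and 0.022 for Clock. Its lowest scores belonged to mouse 415 (-0.81) of the High-Active amphetamine group and mouse 871 (-0.68) of the High-Active saline group. The highest belonged to mouse 457 (0.89) of the Control amphetamine group and mouse 886 (0.75) of the High-Active saline group. Mouse 457 had the highest level of all 20 mice in Per1, Per3, Cry2, Dbp and Ciart, and mouse 415 had the lowest in Per1, Per2, Cry2 and Clock. Over the mice, the oligodendrocyte score had r from -0.52 for Per2 to 0.27 for Dbp and the cortical score from 0.062 for Arntl to 0.46 for Cry2. Adjusted for both scores, 8 pairs passed, 7 of them among the 14.

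The labels allow the same reading against behavior and birth. None of 30 relations of a clock gene with home cage distance, distance after the injection or birth date passed the adjustment (lowest adjusted p = 0.445). The smallest unadjusted values were those of Dbp and birth date (r = 0.54, rho = 0.49, permutation p = 0.0194) and of Arntl and distance after the injection (r = 0.44, rho = 0.33, permutation p = 0.0437). All 10 members had a positive r with birth date, between 0.032 and 0.54. Many members were related to each other, so these signs are not independent, and the share of all genes with a positive r was not computed.

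Across all tested genes, the 5 genes outside the members with the highest r with Dbp over the 20 mice were Fignl1 (0.90), Usp2 (0.88), Matk (0.84), Rps2-ps6 (0.84) and Zdhhc12 (0.83). Usp2 encodes a deubiquitinase that is itself a clock output. Among the lowest values were those of Prkar2a (-0.91), Magi3 (-0.90), Nkrf (-0.89) and Fam196a (-0.89). Of 28 further clock genes, 7 had an absolute r above 0.5 with Dbp, as did 15.4% of all genes, and they are named here after their values were seen. Beside Usp2, these were Hlf (0.74) and Tef (0.68), the other D-box activators of its family, Cipc (0.73), a repressor of CLOCK, Nr1d2 (0.69), the paralog of Nr1d1, Fbxw11 (-0.76), and Nfil3 (-0.55), which encodes a repressor of D-box genes. Sphk2, whose exons overlap those of Dbp on the other strand, had r = -0.75. Across genes the median absolute r with Dbp was 0.25.

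The genes most like Arntl were Spred1 (0.89), Grasp (0.88), Rgs20 (0.87), Ranbp2 (0.86) and Ubl3 (0.86), and the least like it were Corin (-0.86), Ccpg1os (-0.85), Pcsk4 (-0.84), Ccdc146 (-0.84) and Reps1 (-0.83). None of these is a core clock gene, and Corin lay below the 1 CPM of the filter on average (mean log2 CPM -1.19). Of the 28 further clock genes, 3 had an absolute r above 0.5 with Arntl (10.7%), a smaller share than the 17.8% of all genes. These correlations share libraries and group means and are descriptions without a test.

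The 28 further clock genes, all above the filter, gave the wider pathway. For line, 1 was called higher and 5 lower (6 of 28, where 14.5% of all genes were called), with 10 of 28 above 0 and a median log2 fold change of -0.040. Of those called lower, Bhlhe40, which encodes the E-box repressor DEC1, stood at 63.0 CPM in High-Active against 76.1 CPM in Control mice (log2 fold change -0.28, standard error 0.0702, edgeR adjusted p = 0.0237). Arntl2, the paralog of Arntl, was lower at 4.94 against 6.03 CPM (log2 fold change -0.29, edgeR adjusted p = 0.0609). Nr1d2, the REV-ERB beta gene, was lower at 193 against 210.0 CPM (log2 fold change -0.12, edgeR adjusted p = 0.0491).

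Gsk3b, which encodes a kinase of several clock proteins, was lower at 249 against 273 CPM (log2 fold change -0.13, edgeR adjusted p = 0.0328), and Nampt, which encodes the clock-driven enzyme of NAD synthesis, at 60.3 against 64.2 CPM (log2 fold change -0.091, edgeR adjusted p = 0.0627). With the marker scores as covariates none of the 6 called genes passed. For amphetamine 0 of 28 were called, and the smallest p was that of Rora (log2 fold change 0.26, unadjusted p = 0.00337, edgeR adjusted p = 0.215). For the interaction 0 of 28 were called, and the smallest p was that of Nono (unadjusted p = 0.0623, edgeR adjusted p = 1.00). Of 12 genes that respond to glucocorticoids, 2 were called higher in High-Active mice, Cdkn1a (log2 fold change 0.79) and Sult1a1 (0.71), a share near the 14.5% of all genes, and 0 for amphetamine.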

How the data were processed

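Striatal RNA of 20 mice was sequenced as 100 bp paired reads from a stranded kit. The authors deposited raw read counts per gene, 1 table a mouse, without normalization, made with CASAVA 1.8.2, TopHat2 2.0.10 on GRCm38 with Ensembl 75, and HTSeq 0.6.1. Reads on no gene (8.17% to 9.55% of reads), ambiguous reads and reads without a unique alignment stayed out of library sizes and tests. Symbols and exons came from GENCODE M21 and promoters from RefSeq.

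Counts were tested with edgeR 4.0.16 (R 4.3.3) in the quasi-likelihood test, on 14792 genes above 1 CPM in at least 3 mice, with TMM factors, a mean for each group, Benjamini-Hochberg adjustment within each effect and a threshold of 0.1. CPM use TMM library sizes and log2 CPM a prior count of 2. The scripts recovered known changes in simulated counts. The p-values measure the spread between mice, some of which share parents. Alternatives were DESeq2 1.42.0, RLE factors, other filters, a likelihood-ratio test with robust dispersions, limma-voom 3.58.1 with a family block, covariates (birth date, marker scores) and leaving out each mouse. For the pairs, Spearman's rho, CPM, averaging by parents and marker adjustment were tried. No pairs of libraries had identical counts. All members were named in each comparison. Of the further clock genes, those past the threshold, or with the smallest p in an effect without any, were named, with the 5 genes most and least like Arntl and Dbp. Some genes that these rules select are not reported here. Members and lists were chosen with earlier results of these data known.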

Additional observations from a re-analysis of the deposited data

Results flagged for a closer look

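In 40 sets of 5 values (10 genes in 4 groups), 2 had a mouse far from the others of its group by Dixon's ratio of gap to range (0.71 for 5 mice). Chance marks about 1 in 20 such sets. Cry2 in mouse 457 of the Control amphetamine group was 191 CPM, where the other 4 mice had 157 to 161 CPM. The gap was 0.856 of the range. Arntl in mouse 407 of the same group was 40.2 CPM, where the others had 26.9 to 29.6 CPM (0.757 of the range). Without mouse 457 the line effect called 1 clock gene, Cry2, in place of 3. Without mouse 407, 16 pairs of clock genes passed in place of 14.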

How the results depend on the processing

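The 3 clock genes called for line became 0 with marker scores as covariates (cortical and oligodendrocyte, which overlap with line, with 265 genes called in all) and 1 to 4 with a mouse left out, 4 without mouse 886, where Per3 joined; without mouse 407 Per3 joined and Nr1d1 dropped out. They became 4, with Per3, by the likelihood-ratio test (15.3% of all genes called) and with birth date (16.1%). Cry2 was called in 27 of 28 refits. The 0 of 10 between lines in saline mice became 1 by DESeq2 (Cry2, 7.51% of all genes called), 4 by the likelihood-ratio test (with Dbp, Nr1d1 and Per3, 7.38%), 3 with birth date (Cry2, Dbp and Nr1d1, 5.8%, against 3.74% as reported) and 0 to 1 with a mouse left out (Dbp without mouse 886). The 0 in amphetamine mice became 1, Cry2, with birth date (1.91%). The 14 related pairs became 8 by Spearman's rho, 3 averaged over mice of the same parents, 8 adjusted for marker scores and 7 to 16 with a mouse left out. They fell to 7 without mouse 871 or 886, 8 without 883 or 905 and 9 without 415 or 454. The causes were not tested. Dbp, Ciart and Nr1d1 stayed related in all 25 settings. Counts for amphetamine, for the interaction and for the labels stayed at 0 in every setting.

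Differences that turned sign were small and passed no test. With marker scores as covariates the line values were 0.031 for Per2 and 0.0018 for Cry1. The amphetamine values were then -0.046 for Per2, 0.0025 for Cry1, -0.043 for Cry2, -0.041 for Nr1d1, -0.12 for Dbp and -0.028 for Ciart, and the interaction values -0.071 for Per3, 0.022 for Clock, -0.057 for Dbp and -0.098 for Ciart. By the likelihood-ratio test the amphetamine values were -0.0046 for Per2 and 0.049 for Per3, and with birth date 0.017 for Per3 and 0.000254 for Cry1. With a mouse left out, the amphetamine values of Per1 ran from -0.059 to 0.039, Per2 from -0.029 to 0.058, Per3 from -0.037 to 0.050 and Cry1 from -0.025 to 0.025. The interaction of Arntl ran from -0.048 to 0.13, Cry2 from -0.063 to 0.041, Cry1 from -0.091 to 0.014, Clock from -0.061 to 0.028 and Per3 from -0.058 to 0.15. Each library held at least 410 reads of every member.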
